A study of Solanum lycopersicum with 6 samples.

Results

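Transcripts of 8 genes of the later carotenoid pathway were followed in tomato fruit: the lycopene cyclases LCYb (Solyc04g040190.1), CYC-B (Solyc06g074240.3) and LCYe (Solyc12g008980.3), the beta-carotene hydroxylases BCH1 (Solyc06g036260.3) and BCH2 (Solyc03g007960.3), zeaxanthin epoxidase (ZEP, Solyc02g090890.4), violaxanthin de-epoxidase (VDE, Solyc04g050930.3) and the 9-cis-epoxycarotenoid dioxygenase NCED1 (Solyc07g056570.1). They were chosen by gene identifier, and all 8 were found among the 21708 genes listed in at least 1 library. RNA was sequenced from exocarp, the outer layer of the fruit, in 3 libraries of wild-type tomato (WT) and 3 libraries of nor-like1, a line in which the NAC-type regulator SlNOR-like1 is knocked out. Both groups carry the stage label MG. The authors' deposited comparison calls the mutant nor-like1-1, which may name an allele or a line. The sample labels give no age, growth condition or mutant allele. They also leave unsaid whether libraries of the same genotype are from different plants or fruits. The p-values below therefore measure only how far the libraries spread, and that spread may be technical. The comparison asks how the transcripts that lead from lycopene to xanthophylls and to abscisic acid (ABA) differ between the genotypes.

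Lycopene is a linear red carotenoid, and the cyclases close its ends into rings. LCYb and CYC-B make beta rings and so beta-carotene, whereas LCYe makes the epsilon ring of the lutein branch. Hydroxylases then convert beta-carotene to zeaxanthin. ZEP adds epoxide groups to zeaxanthin to give violaxanthin, and VDE reverses this in strong light, the xanthophyll cycle that protects the photosystems. NCED enzymes cleave 9-cis-epoxycarotenoids to xanthoxin, the committed step of ABA synthesis. In ripening tomato, LCYb and LCYe transcripts fall while lycopene accumulates.

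Depth, as total expected counts, was 11459875 to 17578533 in WT and 8503210 to 11023036 in nor-like1. A floor of 3 counts equalled between 0.174 and 0.356 CPM (depth-scaled counts, with library sizes adjusted by TMM), a limit that covers counting error only. The SlNOR-like1 transcript (Solyc07g063420.3) stood at 16.3% of its WT level in nor-like1, with no overlap between the genotypes. Each of 6 epidermis markers had counts in every library, as the exocarp label asks, with summed levels of 514 to 617 CPM in WT and 687 to 775 CPM in nor-like1. The markers went both ways: the wax gene CER6 rose (0.85, edgeR quasi-likelihood adjusted p = 0.00592), and the cutin genes GPAT6 (-1.30, adjusted p = 0.0279) and CYP86A69 (-0.78, adjusted p = 0.0226) fell. The cutin synthase gene CD1 was higher in every nor-like1 library but was not called (0.96, edgeR quasi-likelihood adjusted p = 0.0529). It measured 21.7, 22.8 and 39.1 CPM in WT and 41.9, 67.0 and 53.8 CPM in nor-like1. Its call appeared without WT replicate 3 (0.00746) or nor-like1 replicate 1 (0.0449). Without CER6 the sums were 240 to 322 CPM in WT and 197 to 246 CPM in nor-like1. GPAT6 lost its call without WT replicate 1 (adjusted p = 0.0671), WT replicate 2 (0.0732) or nor-like1 replicate 3 (0.0849), and CYP86A69 without WT replicate 2 (0.0583) or nor-like1 replicate 2 (0.0735). Of 20 seed genes, 9 never exceeded the floor and 5 passed the filter on low counts, with summed levels of 14.6 to 23.7 CPM in WT and 10.8 to 15.5 CPM in nor-like1. Of 10 vascular genes, 4 passed, with summed levels of 140 to 152 CPM in WT and 243 to 318 CPM in nor-like1. Cysteine proteinase genes accounted for most of that difference. Solyc02g076730.4, by its best hit xylem cysteine proteinase 2-like but described as cysteine protease CP14, rose from 11.8 ± 0.49 to 109 ± 27.9 CPM (SD, n = 3 each; edgeR quasi-likelihood adjusted p = 0.000552). Solyc04g080873.2, described as xylem cysteine proteinase 1 but by its best hit zingipain-2, rose from 86.8 ± 3.54 to 127 ± 14.2 CPM (adjusted p = 0.0175). This call was lost without WT replicate 1 (0.068) or 2 (0.0803) or nor-like1 replicate 2 (0.064) or 3 (0.0631). Without this pair the sums were 44.0 to 50.3 CPM in WT and 50.8 to 59.5 CPM in nor-like1. The part of seed, vascular or epidermis transcripts in the results was not tested. Among ripening genes, E8 (Solyc09g089580.4) measured 1195 CPM in WT replicate 1 against 148 and 119 CPM in the other WT libraries, and in nor-like1 it measured 294, 27.1 and 13.1 CPM in replicates 1, 2 and 3. PG2a and PSY1 were likewise highest in replicate 1 of each genotype, whereas the ethylene synthesis genes ACS2 and ACS4 were not, so replicate 1 stood apart in 3 of 5 ripening markers. On the first principal component of all genes, WT replicate 3 lay at -23.2 between the other WT libraries, at -74.6 and -61.8, and nor-like1, at 41 to 60.8. 

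Of the 8 genes, CYC-B was higher in nor-like1, while BCH1, ZEP and VDE were lower. LCYb, BCH2 and NCED1 did not pass the test, and LCYe was too rare to be tested. Thus 4 of 7 tested genes were called with the edgeR quasi-likelihood test at an adjusted p below 0.05, where 21.9% of all 16380 tested genes were called. Of all genes, 10.5% were higher and 11.4% lower in nor-like1, against 1 and 3 of the 7. CYC-B passed the filter on low counts through the nor-like1 libraries alone, since all 3 WT libraries lay below the 0.89 CPM that the filter asked for. Among the 6 genes above that level in both genotypes, 3 were lower and none was higher. The CPM of the genotypes did not overlap at 5 of the 7, the 4 called genes and LCYb, against 42.9% of all tested genes. The median log2 fold change (nor-like1 over WT, here and below) was -0.26 over the 7 genes and -0.01 over all genes. In bulk tissue, fewer cells of a type and less RNA per cell cannot be told apart.

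**Figure D1:**
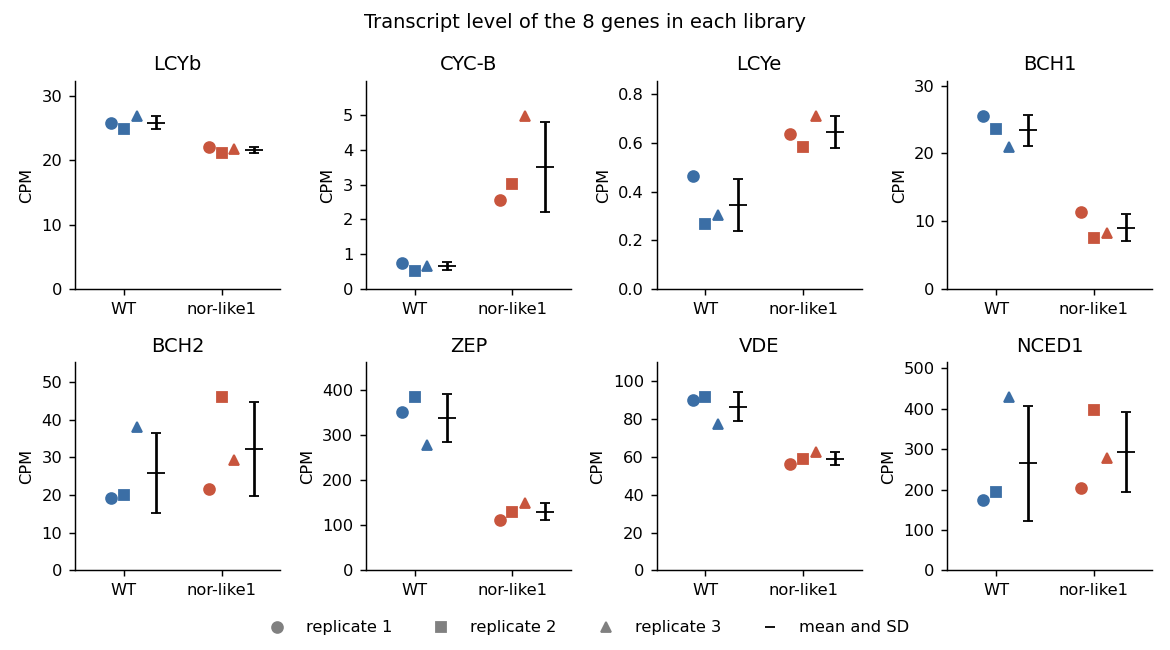
Transcript level of the 8 genes in CPM on linear axes that start at 0, with 1 point per library (shape: replicate number) and the mean ± SD of each genotype (n = 3) as the black bar beside the points. CYC-B lies at 0.531 to 0.755 CPM in WT and 2.55 to 4.99 CPM in nor-like1, ZEP at 279 to 385 and 112 to 150 CPM, and the genotypes overlap for BCH2 and NCED1.

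LCYb, the lycopene beta-cyclase of green tissue, was the main cyclase transcript in both genotypes. Replicates 1, 2 and 3 measured 25.9, 24.8 and 26.9 CPM in WT and 22.1, 21.1 and 21.7 CPM in nor-like1, the order of libraries kept for every gene below. Every nor-like1 library was below every WT library, by a narrow gap. Mean CPM was 25.9 ± 1.07 in WT and 21.6 ± 0.482 in nor-like1 (SD, n = 3 each). This is a log2 fold change of -0.26 (SE 0.095, 95% interval -0.48 to -0.03), and the edgeR quasi-likelihood adjusted p was 0.0929, so the difference was not called. In the fits without 1 library the log2 fold change was -0.28 to -0.23, uncalled in all 6.

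CYC-B, the beta-cyclase of chromoplasts known from the Beta and old-gold fruit colour loci, rose in nor-like1 from a very low level. It measured 0.755, 0.531 and 0.668 CPM in WT and 2.55, 3.02 and 4.99 CPM in nor-like1. The lowest nor-like1 library lay above the highest WT library, and nor-like1 replicate 3 was the highest of all. Mean CPM went from 0.652 ± 0.113 to 3.52 ± 1.29 (SD, n = 3 each), which is a log2 fold change of 2.39 (SE 0.371; edgeR quasi-likelihood adjusted p = 0.00771). Among tested genes 2.13% had a higher fold change, but CYC-B entered the tested set only through its nor-like1 libraries. Its adjusted p, this rank and the calls below share that limit. The reads were few, with 30 in all for WT and 101 for nor-like1. Scaled to depth, the ratio of these sums was 5.10, and counting error alone allows 3.36 to 7.94 (95%). The call was kept in all 6 fits that left out 1 library, with log2 fold changes of 2.07 to 2.58 and adjusted p up to 0.0401.

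LCYe, the epsilon-cyclase of the Delta locus, was near the detection floor in both genotypes. Its counts were 8, 3 and 5 in WT and 7, 6 and 6 in nor-like1, or 0.465, 0.266 and 0.304 CPM against 0.638, 0.584 and 0.712 CPM. The nor-like1 libraries were all above the WT libraries, but the filter on low counts removed the gene before testing. The summed counts, 16 against 19, gave a ratio of 1.80 after scaling to depth, and its 95% counting interval of 0.876 to 3.74 includes no difference. Without the filter, the edgeR quasi-likelihood adjusted p was 0.311. At this depth no difference was detectable.

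BCH1, a beta-ring hydroxylase expressed mainly in green tissue, fell in nor-like1. It measured 25.6, 23.6 and 21.0 CPM in WT and 11.3, 7.49 and 8.31 CPM in nor-like1. All nor-like1 libraries were far below all WT libraries. Mean CPM was 23.4 ± 2.31 in WT and 9.03 ± 2.01 in nor-like1 (SD, n = 3 each), so that nor-like1 held 38.7% of the WT level. At a log2 fold change of -1.37 (SE 0.18) its adjusted p in the edgeR quasi-likelihood test was 0.00492, and 1.76% of tested genes had a lower fold change. It was called in each of the 6 fits without 1 library, at -1.56 to -1.25 and adjusted p up to 0.0282.

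BCH2, the paralogous hydroxylase whose loss gives the white-flower phenotype, was not called. It measured 19.2, 20.1 and 38.0 CPM in WT and 21.5, 46.0 and 29.4 CPM in nor-like1. The genotypes overlapped, with the highest values in WT replicate 3 and nor-like1 replicate 2. The log2 fold change was 0.32 (SE 0.375, 95% interval -0.59 to 1.23; edgeR quasi-likelihood adjusted p = 0.565). Without nor-like1 replicate 2 the log2 fold change was -0.02, without WT replicate 3 it was 0.72 (adjusted p = 0.154), and leaving out replicate 1 of WT or of nor-like1 gave 0.15 or 0.55.

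ZEP, the epoxidase that is mutated in the high-pigment 3 tomato, fell in nor-like1 and had the smallest adjusted p of the 7 tested genes. It measured 352, 385 and 279 CPM in WT and 112, 129 and 150 CPM in nor-like1. The gap between the highest nor-like1 and the lowest WT library was wider than the range within nor-like1. Mean CPM dropped to 130 ± 18.8 from 339 ± 54.1 (SD, n = 3 each), leaving 38.5% of the WT level. In log2 terms the change was -1.38 (SE 0.167), at an adjusted p of 0.00403 in the edgeR quasi-likelihood test. It stayed called without any 1 library, at -1.50 to -1.27 and adjusted p up to 0.024.

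VDE, the enzyme that opposes ZEP in the xanthophyll cycle, fell by less. It measured 90.0, 91.6 and 77.7 CPM in WT and 56.1, 58.9 and 62.5 CPM in nor-like1. The genotypes did not overlap. Its average of 86.4 ± 7.63 CPM in WT compared with 59.2 ± 3.21 CPM in nor-like1 (SD, n = 3 each), which left 68.4% of the WT level at a log2 fold change of -0.55 (SE 0.107; edgeR quasi-likelihood adjusted p = 0.015). The call was lost without WT replicate 1 (adjusted p = 0.0601), WT replicate 2 (0.0683) or nor-like1 replicate 2 (0.0578), at log2 fold changes of -0.52, -0.50 and -0.55.

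NCED1, the dioxygenase altered in the ABA-deficient notabilis mutant, was abundant in both genotypes and was not called. It measured 174, 193 and 429 CPM in WT and 203, 397 and 278 CPM in nor-like1. The highest and the lowest of the 6 values both came from WT. Mean CPM was 265 ± 142 in WT and 293 ± 98.2 in nor-like1 (SD, n = 3 each), and the log2 fold change was 0.14 (SE 0.415, 95% interval -0.87 to 1.15; edgeR quasi-likelihood adjusted p = 0.830), so changes of either sign within that interval remain possible. Without WT replicate 3 it was 0.67 with an adjusted p of 0.127, and leaving out nor-like1 replicate 2 gave -0.14.

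**Figure D2:**
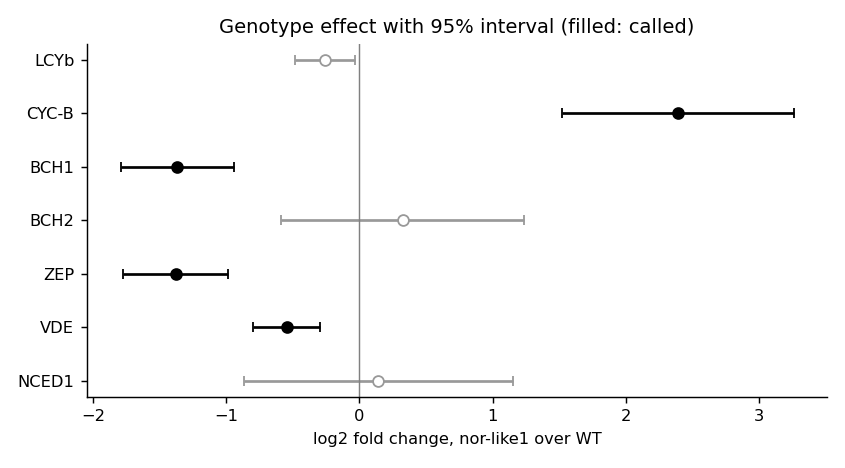
Log2 fold change of the 7 tested genes, nor-like1 over WT, with its 95% interval from the edgeR quasi-likelihood fit (3 libraries per genotype); filled points passed an adjusted p below 0.05. CYC-B lies at 2.39, ZEP and BCH1 at -1.38 and -1.37 and VDE at -0.55, while the intervals of BCH2 and NCED1 span 0 widely.

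Levels were compared between genes on the FPKM scale, which takes account of transcript length. In WT, NCED1 (152 ± 83.9 FPKM) and ZEP (135 ± 20.1 FPKM) were highest and overlapped in range. VDE followed at 47.5 ± 3.53 FPKM, then BCH2 (21.4 ± 9.29), BCH1 (19.1 ± 1.48) and LCYb (18.1 ± 1 FPKM), neighbours that did not differ beyond their spread. CYC-B (0.457 ± 0.0777 FPKM) and LCYe (0.18 ± 0.0529 FPKM) were far below (SD, n = 3 throughout). In nor-like1 the order was NCED1 (164 ± 54 FPKM), ZEP (51.1 ± 7.35), VDE (32.1 ± 1.71), BCH2 (26.3 ± 10), LCYb (14.9 ± 0.41), BCH1 (7.28 ± 1.66), CYC-B (2.44 ± 0.896) and LCYe (0.333 ± 0.0351 FPKM). There NCED1 and ZEP no longer overlapped, VDE and BCH2 did, and BCH1 had moved below LCYb. Among all tested genes ranked by mean FPKM, ZEP went from percentile 94.7 to 84.7 and BCH1 from 60.2 to 30.9. CYC-B, in the tested set through its nor-like1 libraries alone, went from 2.06 to 12.3.

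Ratios within a library compare genes at the same step (CYC-B over LCYb, BCH1 over BCH2), on different branches (beta-cyclases over LCYe) or in opposing reactions (ZEP over VDE). CYC-B over LCYb was 0.0293, 0.0214 and 0.025 in WT and 0.116, 0.144 and 0.231 in nor-like1, a difference of 2.65 in mean log2 ratio. Even so, CYC-B made up only 13.9% ± 4.32 of the summed beta-cyclase FPKM in nor-like1, against 2.46% ± 0.379 in WT (SD, n = 3 each). The summed beta-cyclase level was 18.6 ± 1.04 FPKM in WT and 17.4 ± 0.978 FPKM in nor-like1, within the spread between libraries.

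The beta-cyclases over LCYe gave 76.1, 126 and 123 in WT and 51.8, 55.2 and 49.9 in nor-like1, a ratio that rests on the few LCYe counts. BCH1 over BCH2 was 1.32, 1.16 and 0.545 in WT and 0.519, 0.161 and 0.279 in nor-like1. BCH1 thus made up 48.6% ± 11.7 of the hydroxylase pair in WT and 23.3% ± 10.2 in nor-like1 (SD, n = 3 each), with WT replicate 3 close to nor-like1 replicate 1. ZEP over VDE was 2.84, 3.04 and 2.60 in WT and 1.44, 1.59 and 1.73 in nor-like1, lower by 0.83 in log2 ratio (-0.83, nor-like1 minus WT). None of the 4 ratios overlapped between the genotypes. For single genes, CPM did not overlap at 42.9% of all tested genes. Every ratio holds a gene already given as not overlapping, so this adds no separate evidence. Each ratio gave a two-sided exact permutation p of 0.1, also when adjusted over the 4, which is the smallest p that 3 libraries against 3 can give. Leaving out each library in turn, the log2 differences were 2.37 to 2.86 for CYC-B over LCYb, -1.26 to -0.89 for the beta-cyclases over LCYe, -2.15 to -1.31 for BCH1 over BCH2 and -0.90 to -0.77 for ZEP over VDE.

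**Figure D3:**
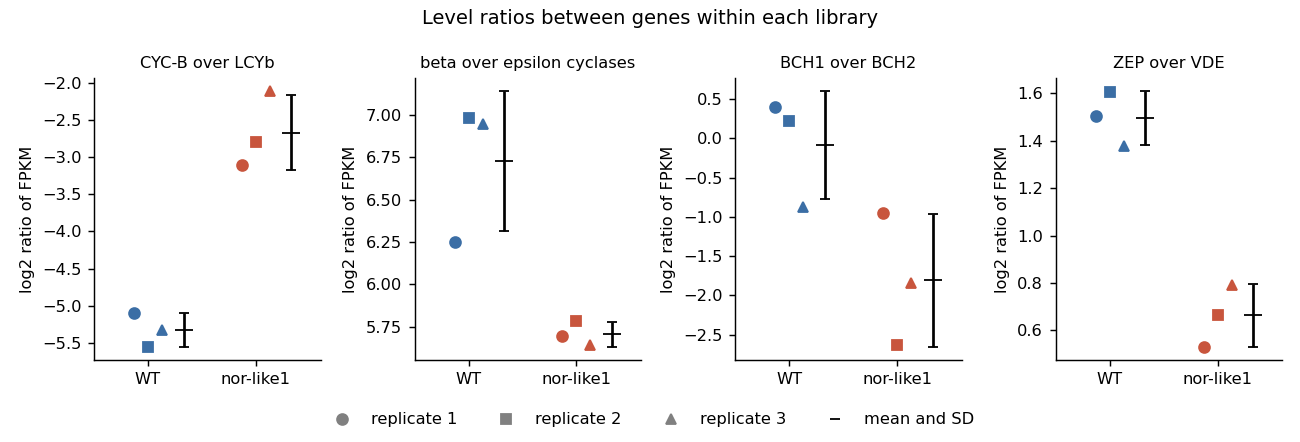
Log2 ratios of FPKM between genes within each library, with 1 point per library (shape: replicate number) and the mean ± SD of each genotype (n = 3); each panel has its own linear axis in log2 units that does not start at 0. CYC-B over LCYb is higher in nor-like1 and the other 3 ratios are lower, and WT replicate 3 and nor-like1 replicate 1 lie nearly level for BCH1 over BCH2.

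The genes fell into different patterns over the 6 libraries. NCED1 and BCH2 varied together, both highest in WT replicate 3 and nor-like1 replicate 2, with a Pearson r of 0.973 on log2 CPM. ZEP and VDE gave an r of 0.997 and ZEP and BCH1 0.918, whereas CYC-B against ZEP gave -0.898. With 6 libraries these values carry no test. ZEP, VDE, BCH1 and CYC-B share the genotype split, whereas NCED1 and BCH2 do not follow it. WT replicate 3 and nor-like1 replicate 2 also deviated together from their genotype means over all genes (r = 0.324). That was the highest r of any WT library with any nor-like1 library. Deviations from a genotype mean cancel out within the genotype, so r of both signs must occur. The part of this shared deviation in the likeness of NCED1 and BCH2 was not tested.

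Likeness was ranked over 13277 described genes that averaged 5 CPM or more, and those most like NCED1 were a serine/threonine-protein kinase (Solyc08g007910.5, r = 0.993), WRKY transcription factor 37 (Solyc01g079360.4, r = 0.992) and a heme binding protein (Solyc01g100590.3, r = 0.990). Those most like ZEP were a glucose-6-phosphate 1-dehydrogenase (Solyc07g045540.4, r = 0.999), which feeds the oxidative pentose phosphate pathway, the brassinosteroid synthesis gene DWARF1/DIMINUTO (Solyc02g030170.4, r = 0.999) and a protein-tyrosine phosphatase (Solyc11g011970.2, r = 0.998).

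**Figure D4:**
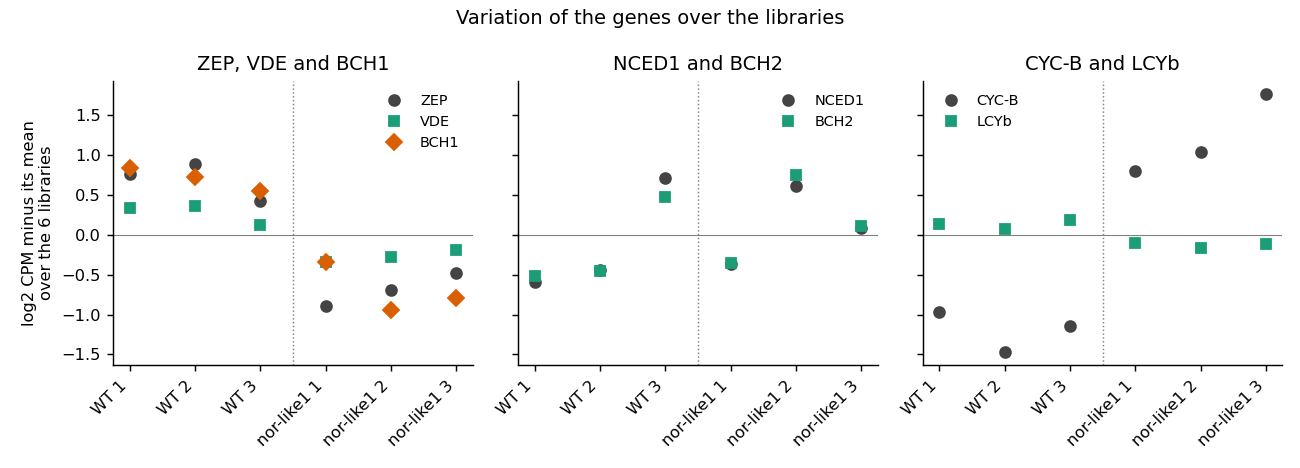
Log2 CPM of each gene minus its mean over the 6 libraries, with 1 point per gene and library and a dotted line between the genotypes. ZEP, VDE and BCH1 drop at the dotted line, CYC-B rises there, and NCED1 and BCH2 are both highest in WT replicate 3 and nor-like1 replicate 2 (r = 0.973).

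The steps before the cyclases were read for context, with means ± SD over 3 libraries per genotype. Over all tested genes 21.9% were called, 10.5% higher and 11.4% lower, the shares to set beside each list here and below. Of 6 tested genes from phytoene to lycopene, 2 were lower in nor-like1 and none was higher (33.3% called), with a median log2 fold change of -0.28. Those called were PSY2 (Solyc02g081330.4), the phytoene synthase of green tissue, at -0.51 (adjusted p = 0.0158), and phytoene desaturase (PDS, Solyc03g123760.3) at -0.43 (adjusted p = 0.0474; edgeR quasi-likelihood test, as for all adjusted p in the text on these lists). PSY1 (Solyc03g031860.3), the fruit-ripening phytoene synthase, measured 411, 156 and 199 CPM in WT and 628, 140 and 107 CPM in nor-like1. It was highest in replicate 1 of each genotype, as E8 was, and was not called (0.19, adjusted p = 0.872). Leaving out nor-like1 replicate 1 moved it to -1.04, still uncalled (adjusted p = 0.170).

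Of 15 tested genes for plastid isoprenoid precursors, 4 were higher and 4 lower (53.3% called, median log2 fold change -0.14). The reductase HDR (Solyc01g109300.3), the last enzyme of the plastid MEP pathway, fell from 1090 ± 61.4 to 617 ± 68.7 CPM (-0.82, adjusted p = 0.00826). The geranylgeranyl diphosphate synthase small subunit (Solyc09g008920.3) fell as well (-0.66, adjusted p = 0.0264). Isopentenyl diphosphate isomerase IDI2 (Solyc05g055760.3) rose from 24.0 ± 2.66 to 39.7 ± 2.01 CPM (0.72, adjusted p = 0.00795), and the MEP pathway kinase ISPE (Solyc01g009010.3) rose by a log2 fold change of 0.46 (adjusted p = 0.0142).

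Of 12 tested genes with other xanthophyll or carotenoid-cleavage annotations, 1 was higher and 2 were lower, with a median log2 fold change of 0.01. A second 9-cis-epoxycarotenoid dioxygenase (Solyc08g016720.1, described as dioxygenase2) rose from 16.7 ± 2.99 to 27.6 ± 5.27 CPM (0.72, adjusted p = 0.0337). Solyc08g067470.3, by its best hit a zeaxanthin epoxidase but described as 6-hydroxynicotinate 3-monooxygenase, fell (-0.36, adjusted p = 0.0467). Solyc01g009080.5, described as zeaxanthin epoxidase but with an uncharacterised best hit, fell too (-0.89, adjusted p = 0.040). The P450 carotenoid hydroxylases CYP97A29 (Solyc04g051190.3; 0.28, adjusted p = 0.106) and CYP97C11 (Solyc10g083790.3; -0.01, adjusted p = 0.969), which act on the lutein branch, were not called.

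Of 13 tested genes for ABA synthesis after NCED and for ABA breakdown, 3 were higher and 1 was lower (30.8% called, median log2 fold change 0.12). The molybdenum cofactor sulfurase flacca (Solyc07g066480.3), which activates abscisic aldehyde oxidase, rose from 23.4 ± 3.38 to 35.3 ± 5.91 CPM (0.60, adjusted p = 0.0416). Solyc01g088200.4, described as an aldehyde oxidase 4 pseudogene, rose from a low level (1.14, adjusted p = 0.0271). The other called genes, annotated by their best protein hit as mitochondrial amidoxime-reducing components and so perhaps outside ABA synthesis, gave 1.06 (Solyc01g044370.3, adjusted p = 0.0298) and -0.43 (Solyc02g081880.3, adjusted p = 0.026). Genes for ABA receptors, PP2C phosphatases and SnRK2 kinases were found by patterns in descriptions or best hits. These matched any PP2C annotation and the letters PYL inside longer words, so the list may hold genes outside ABA signalling. Of its 92 tested genes, 7 were higher and 5 lower, with a median log2 fold change of 0.15. Leaving out WT replicate 1, 2 or 3 gave 3 and 2, 3 and 1, and 12 and 6, respectively. Leaving out nor-like1 replicate 1 gave 13 and 6, and each of the other nor-like1 libraries gave 3 and 2.

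Carotenoids are held in membranes with chlorophyll-binding proteins or in plastoglobules. Of 11 tested carotenoid-storage genes, 3 were lower and none was higher (27.3% called), with a median log2 fold change of -0.40. They were plastoglobulin-1 (Solyc08g076480.3; 870 ± 153 to 522 ± 42.8 CPM, adjusted p = 0.021), the plastid lipid associated protein CHRC (Solyc02g081170.5; 232 ± 42.3 to 145 ± 12.7 CPM, adjusted p = 0.0239) and a plastid-lipid-associated protein 13 gene (Solyc03g062790.3; -0.49, adjusted p = 0.0317). Of 81 tested chlorophyll-binding and photosystem genes, 30 were lower and 2 higher (39.5% called), with a median log2 fold change of -0.39. Their summed level ranged from 8670 to 9068 CPM in WT and from 5361 to 6285 CPM in nor-like1, a mean of 65.6% of WT. Set beside this, VDE stood at 68.4% of WT, and ZEP and BCH1 at 38.5% and 38.7%. The part of these plastid transcripts in the change of ZEP, VDE and BCH1 was not tested. Leaving out WT replicate 1, 2 or 3 gave 15, 13 and 33 lower and 1, 1 and 6 higher genes of the photosystem list. Leaving out nor-like1 replicate 1, 2 or 3 gave 27, 15 and 20 lower and 5, 1 and 1 higher genes.

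**Figure D5:**
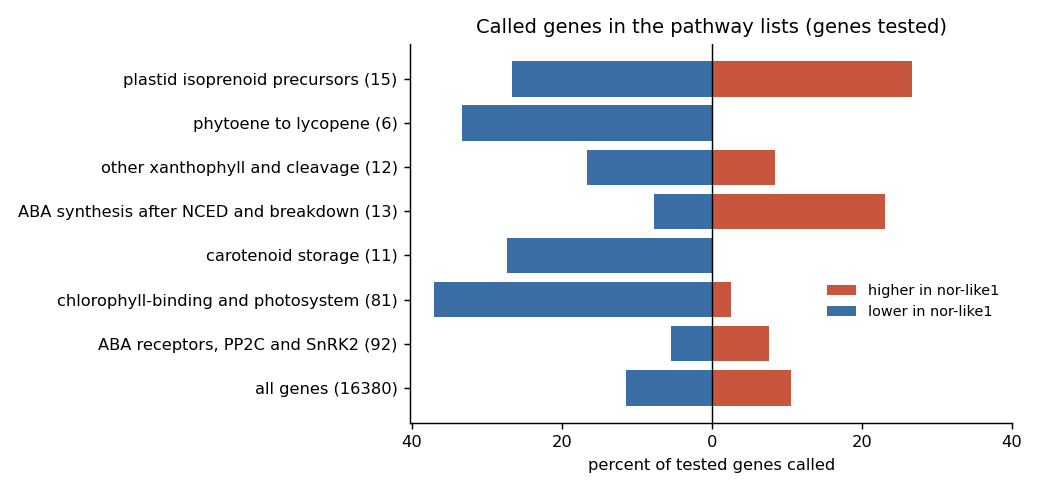
Percent of tested genes called higher (right) or lower (left) in nor-like1 in each pathway list, with the number of tested genes in parentheses and all 16380 tested genes in the bottom row; the linear axis starts at 0 in both directions. Of the photosystem genes 30 of 81 are lower, and the lists of 6 to 15 genes rest on 0 to 4 called genes per direction.

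Most calls in these lists were lost in at least 1 fit without a single library, while HDR and IDI2 were called in all 6. Of the 16 called genes named from the lists, 14 lost the call without WT replicate 1 (adjusted p 0.054 to 0.150) and 14 without WT replicate 2 (0.0501 to 0.166). Without nor-like1 replicates 1, 2 and 3, respectively 6 (0.0527 to 0.0809), 12 (0.0563 to 0.125) and 11 (0.0564 to 0.140) lost it. Without WT replicate 3 only Solyc01g009080.5 did, at 0.0707. All 16 kept their direction, with log2 fold changes between 74.5% and 126% of those with all libraries. The calls over all genes changed in the same fits, from 3585 to 1502, 1139 and 4742 without WT replicates 1, 2 and 3 and to 3739, 1406 and 1651 without nor-like1 replicates 1, 2 and 3. Other settings also ended calls: PDS was not called with upper-quartile factors (adjusted p = 0.060), without the filter on low counts (0.0517) or with counts thinned to the smallest library (0.0604). Solyc08g067470.3 was not called in those settings (0.0682, 0.0656 and 0.0566) or with DESeq2 (0.0990). Solyc01g044370.3 was not called with DESeq2 (0.0667) or after thinning (0.0542). With limma on log2(FPKM + 1) and log2(FPKM + 0.1), flacca (0.0683 and 0.0692) and Solyc01g088200.4 (0.0743 and 0.0655) were not called.

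The authors' deposited table, a DESeq2 comparison of the same libraries, gave log2 fold changes of 1.90 for CYC-B (adjusted p = 7.96e-05), -1.29 for BCH1 (2.64e-07), -1.33 for ZEP (1.21e-11) and -0.53 for VDE (0.00165). In the authors' deposited table the other 4 genes had adjusted p of 0.303 (LCYb), 0.587 (LCYe), 0.648 (BCH2) and 0.840 (NCED1). The same 4 genes passed there as in the edgeR test.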

How the data were processed

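For every library the authors deposited expected counts, FPKM and length per gene, per the file headers. The submitters' processing notes name RSEM, Bowtie2, StringTie and HISAT2, with neither versions nor roles. Not given in the sources used here are the genome build, the annotation and any use of strand. The tables leave out genes at 0, so a gene missing from a library was given 0 there. The authors also deposited a DESeq2 table, from which log2 fold changes and p-values were copied, per the file headers.

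All 8 genes had whole expected counts in every library, and no other gene shared their counts. Best protein hits were matched to symbols of the RefSeq assembly SLM_r2.1 for all 8, and no coordinates are given because the builds may differ. Rounded expected counts went into edgeR 4.0.16 (R 4.3.3), with TMM scaling, the filterByExpr filter and a robust quasi-likelihood model of genotype alone. P-values were adjusted by Benjamini-Hochberg over all 16380 genes left, and genes were called below 0.05. CPM use TMM factors. Correlations used log2 CPM with a prior count of 2. Ratios of FPKM were tested with exact permutation tests (scipy 1.17.1). In simulated counts with the real means, 54.6% of genes changed 2-fold and 83% of those changed 4-fold were called, with 12 false calls among 16216 genes. Only 100 genes were changed by each fold, with counts drawn independently for each gene. In the real data 21.9% of tested genes were called, so these shares and the false calls do not carry over.

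The 8 genes were chosen by gene identifier, as was the list from phytoene to lycopene. The rest of the 7 lists were found by patterns in product descriptions or best protein hits. These choices were made with earlier results of these data known. Genes named were the 8, SlNOR-like1, PSY1, up to 4 called genes per list with the smallest adjusted p for the lists of precursors, earlier carotenoid steps, cleavage, ABA synthesis and storage, and the 3 described genes most like NCED1 and ZEP. The marker genes, CYP97A29 and CYP97C11 were named after their values were seen.

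Alternatives were DESeq2 1.42.0, upper-quartile factors, no filter, a filter of 1 CPM in 3 libraries, limma 3.58.1 on log2(FPKM + 1) and log2(FPKM + 0.1), counts thinned to the smallest library, a replicate block, and leaving out each library.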

Additional observations from a re-analysis of the deposited data

How the results depend on the processing

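CYC-B, BCH1, ZEP and VDE kept their direction and call under DESeq2, upper-quartile factors, both filters, limma at both pseudocounts and thinning to the smallest library, with 4 of the 8 genes called in each. The size of the CYC-B change depended on the pseudocount. Its log2 fold change was 1.21 with limma on log2(FPKM + 1) and 2.14 on log2(FPKM + 0.1), against 2.39 in the edgeR fit. Leaving out 1 library, VDE ranged from -0.62 to -0.50 (log2 fold change) and lost its call in 3 of 6 fits, BCH2 ranged from -0.022 to 0.72, and NCED1 from -0.14 to 0.67, uncalled throughout. All genes called numbered 1139 to 4742 in those fits, against 3585 with all libraries. They were above 3585 without WT replicate 3 (4742) and nor-like1 replicate 1 (3739) and below it without the others; the cause was not tested. The kinase Solyc08g007910.5 ranged from -0.057 to 0.33, WRKY 37 (Solyc01g079360.4) from -0.017 to 0.48 and PSY1 (Solyc03g031860.3) from -1.04 to 0.71. PSY1 gave -0.16 under limma at each pseudocount and -0.14 with the replicate block; the cause was not tested.

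Both genotypes carry replicate numbers 1 to 3. The deviations of same-numbered libraries over all genes were correlated above 0.1 for number 1 alone (r = 0.222, -0.23 and 0.018 for numbers 1, 2 and 3). The numbers were therefore not taken to pair the libraries, though deviations from genotype means must give r of both signs. With the replicate block 2626 genes were called, and the 4 called genes of the 8 remained so, VDE at an adjusted p of 0.0457. Of the 16 called list genes named, 9 were not called with the block (adjusted p 0.0507 to 0.102). The ripening markers E8 (-2.53, adjusted p = 0.00695) and PG2a (-4.06, adjusted p = 0.013), uncalled without the block, were called lower with it. Depth limits LCYe, with 3 to 8 counts per library, and the size of the CYC-B change, with 6 to 13 counts per WT library.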

Other observations

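Several further genes carry an epoxidase or de-epoxidase annotation from their best protein hit. A second gene annotated as violaxanthin de-epoxidase (Solyc04g051610.3) measured 13.5 ± 1.24 CPM in WT and 13.7 ± 0.598 CPM in nor-like1 (SD, n = 3 each; log2 fold change 0.02, edgeR quasi-likelihood adjusted p = 0.901), while VDE itself fell. Among genes annotated as zeaxanthin epoxidase that were not called, Solyc04g025650.3 gave 3.88 ± 2.32 and 9.32 ± 4.01 CPM (log2 fold change 1.25, edgeR quasi-likelihood adjusted p = 0.134) and Solyc12g013690.2 gave 54.4 ± 9.08 and 42.3 ± 13.6 CPM (-0.36, adjusted p = 0.309). These genes were chosen after their values were seen, and whether they act on carotenoids is not known from the files.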
